A study of Homo sapiens with 12 samples.

Results

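The EGF receptor, 6 of its ligands and 3 of its feedback inhibitors were followed at the mRNA level in oral and skin keratinocytes before and after H2O2. These 10 genes, EGFR, AREG, EREG, HBEGF, TGFA, BTC, EPGN, ERRFI1, SPRY2 and SPRY4, were taken from the count table by their names, and all of them were found among its 58735 genes. The skin was represented by HaCaT and the gingiva by TIGK, both immortalized keratinocyte lines of human origin. Each was either left untreated or given 5 mM H2O2 for 3 h, in DermaLife K medium for all groups, with 3 libraries of polyadenylated RNA in each of the 4 groups. Per the study's methods that medium contains TGF-α protein and pituitary extract, so every group, the untreated ones included, was cultured with a ligand of the receptor. Each tissue is represented by 1 line, so line and tissue cannot be told apart. The sources used here do not state whether replicates came from separate cultures. The p-values rest on the spread between these libraries only, which may not include the spread between cultures.

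EGFR is a receptor tyrosine kinase that drives proliferation, migration and survival of keratinocytes. Its ligands are made as membrane-bound precursors, released by proteases of the ADAM family, and act on the same cell or its neighbours. The activated receptor signals through RAS and ERK, and ERK induces transcription of ligands, which sustains the signal, and of inhibitors such as ERRFI1 and the Sprouty proteins, which dampen it. Counts of mRNA show the supply of these transcripts and not the amount of protein, its release or the activity of the receptor.

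Total counts lay between 30426401 and 49034244 per library, and tests covered the 16618 genes whose raw count averaged 10 or more, all 10 of the EGF receptor genes among them. All 9 keratinocyte markers examined were detected in every library, KRT5 at a CPM, its count scaled to library size, of 13217 or more. The summed fibroblast markers reached 22.2 to 25.8 CPM in TIGK and 8.56 to 11.5 in HaCaT, with COL1A1 the highest at 8.09 to 18.4 CPM, DCN at up to 7.2 CPM and COL1A2 at 0 in every library. The leukocyte markers summed to 6.42 to 7.84 CPM in TIGK and to no more than 0.548 in HaCaT, with CD14 and CSF1R the detected genes, and their part in the differences between the lines was not tested. Treated HaCaT replicate 3 stood farthest from the others of its group, at a chi-square per degree of freedom of 30.3 and 20.5 against 10.0 for the other pair. Without it 6 of the 10 genes below were called in HaCaT, 9 in TIGK and 2 for the difference of the responses, ERRFI1 and SPRY4, in place of 7, 8 and 4. Over all genes tested, the shares called in that fit were 28.9%, 27.8% and 6.08%, in place of 34.1%, 23.2% and 5.3%. In bulk RNA, fewer cells that express a gene and less of its RNA per cell cannot be told apart.

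After H2O2, 8 of the 10 genes changed in TIGK and 7 in HaCaT (edgeR adjusted p under 0.01), while 23.2% and 34.1% of all genes tested did. HBEGF rose most in both lines, AREG and SPRY2 rose in both, and ERRFI1 rose about 3-fold in TIGK and by much less in HaCaT. The receptor itself fell in both lines, as did TGFA and EREG, while EPGN fell in TIGK. In TIGK 4 genes rose and 4 fell, against 10.2% and 12.9% of all genes tested, and in HaCaT 4 rose and 3 fell, against 18.9% and 15.2%. The median log2 fold change of the 10 genes was -0.02 in TIGK and -0.14 in HaCaT, beside 0.01 and 0.04 over all genes tested, so rises and falls were nearly balanced within the group. Normalized counts are counts after TMM scaling at the mean library size, adjusted p-values were obtained with the quasi-likelihood test of edgeR and the Benjamini-Hochberg method across every tested gene, and log2 fold changes come with the standard error of that fit.

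The windows of 250 bases before the RefSeq start sites (GRCh38.p14) of 4 genes are shown, because AREG and EREG are neighbours with opposite responses, HBEGF rose most in both lines, and ERRFI1 rose mainly in TIGK. They are chr4:74444886-74445135 (plus strand), chr4:74364895-74365144 (plus strand), chr5:140346604-140346853 (minus strand) and chr1:8026310-8026559 (minus strand), each read 5′ to 3′ on the gene's strand, with the CRE, a binding motif of CREB and ATF factors, in capitals.
AREG: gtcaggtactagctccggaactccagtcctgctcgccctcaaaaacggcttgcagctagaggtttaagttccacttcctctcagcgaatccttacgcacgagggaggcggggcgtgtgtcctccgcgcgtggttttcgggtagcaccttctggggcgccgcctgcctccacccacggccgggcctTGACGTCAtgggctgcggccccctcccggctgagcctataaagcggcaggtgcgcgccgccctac
EREG: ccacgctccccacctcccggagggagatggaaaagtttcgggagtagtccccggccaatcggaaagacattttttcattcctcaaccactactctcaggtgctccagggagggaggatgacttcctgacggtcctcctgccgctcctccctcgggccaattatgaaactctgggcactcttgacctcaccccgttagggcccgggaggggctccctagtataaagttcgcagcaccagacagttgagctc
HBEGF: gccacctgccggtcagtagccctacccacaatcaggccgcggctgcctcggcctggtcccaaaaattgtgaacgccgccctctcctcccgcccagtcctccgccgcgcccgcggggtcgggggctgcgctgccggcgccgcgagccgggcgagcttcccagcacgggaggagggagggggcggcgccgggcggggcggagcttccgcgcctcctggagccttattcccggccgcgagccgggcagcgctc
ERRFI1: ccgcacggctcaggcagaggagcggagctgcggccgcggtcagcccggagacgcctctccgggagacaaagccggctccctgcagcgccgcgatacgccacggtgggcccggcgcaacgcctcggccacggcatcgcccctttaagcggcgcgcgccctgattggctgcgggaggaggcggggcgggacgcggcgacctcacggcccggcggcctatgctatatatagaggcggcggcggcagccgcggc
The CRE, TGACGTCA, stood 65 to 58 bases before the start of AREG, at chromosome 4 from 74445071 to 74445078. It was found in 1.65% of the 35116 RefSeq windows of this length and in none of the windows of the other 9 genes. Also searched on both strands were the AP-1 motif TGANTCA (6.57% of all windows), the EGR motif GCGNGGGCG (8.41%), the CArG box of serum response factor (1.16%) and a pair of ETS cores, GGAAGGAA (3.06%), with no overlap between matches of different motifs. The EGR motif occurred at 2 places before SPRY2 and at 1 before SPRY4, whose RefSeq start lies 2208 bases from the start in the table. The windows of EGFR, EREG, HBEGF, TGFA, BTC, EPGN and ERRFI1 held none of these letters. Only the RefSeq start nearest the start in the table was searched, of 2 for EGFR and TGFA and 3 for SPRY2. The starts used for TGFA, SPRY2 and BTC lie 367, 175 and 163 bases from the start in the table. A match describes the sequence and is not a measured binding site.

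**Figure D1:**
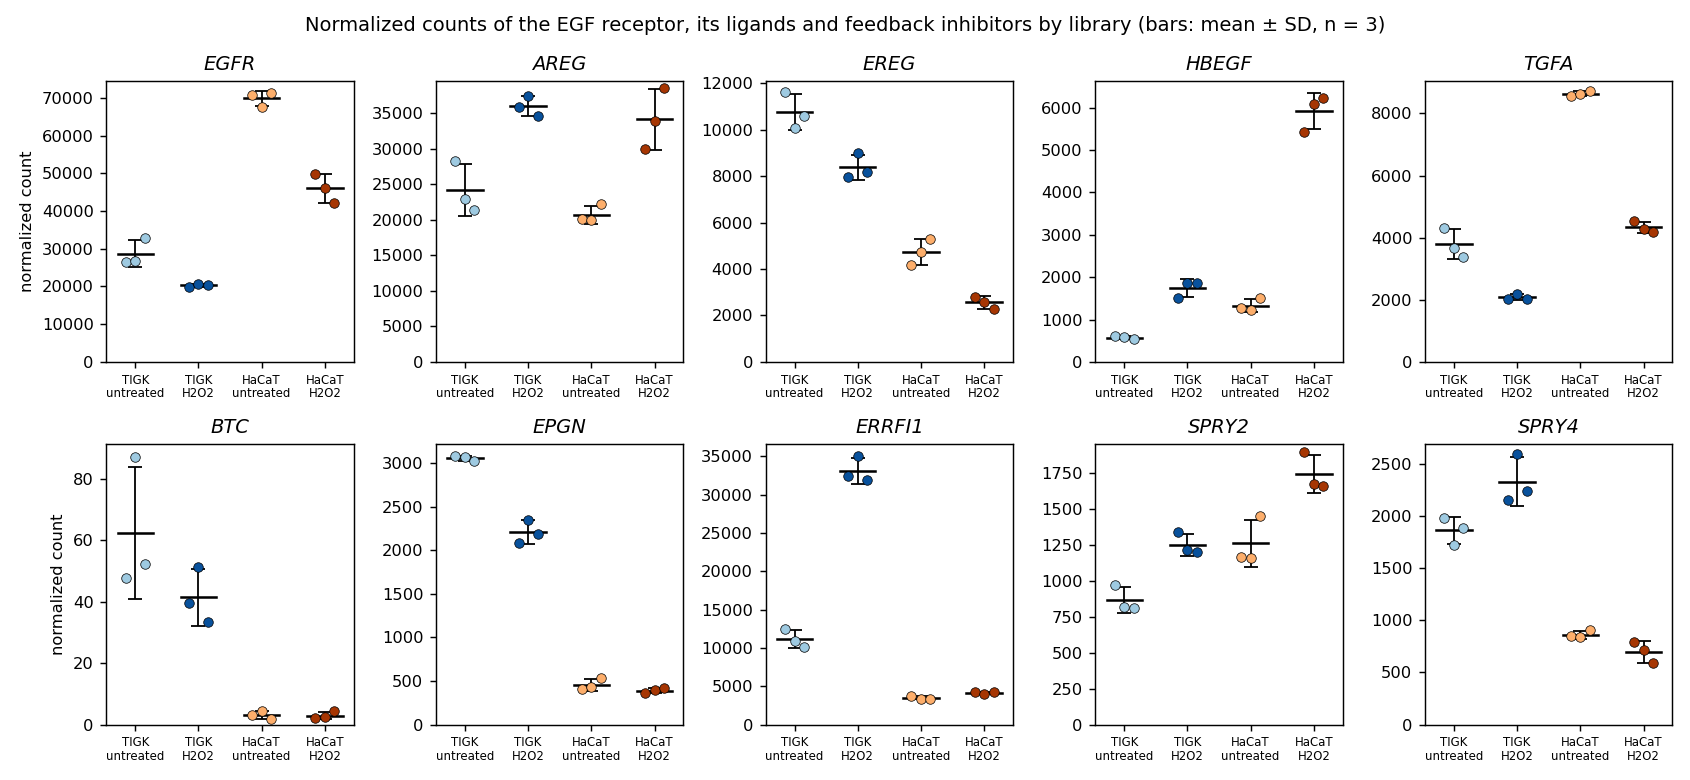
Normalized counts (linear axes from 0) of the 10 genes in each library, with 1 panel per gene and 4 groups on each horizontal axis. Points are libraries and bars are the mean ± SD of 3 libraries. HBEGF reached its highest counts in H2O2-treated HaCaT, ERRFI1 in H2O2-treated TIGK, and EGFR was lower after H2O2 in every library of each line.

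EGFR, the receptor of these ligands (ENSG00000146648, chromosome 7 from 55019021 to 55211628 of GRCh38, plus strand), was abundant in all groups. Untreated TIGK held 26494, 26829 and 32882 normalized counts and treated TIGK 19822, 20649 and 20323. Untreated HaCaT held 70824, 67614 and 71230, and treated HaCaT 49899, 46068 and 42099. All 4 groups were separate, in the order untreated HaCaT, treated HaCaT, untreated TIGK and treated TIGK. EGFR fell by 0.50 on the log2 scale in TIGK (standard error 0.0739, adjusted p = 3.49e-05) and by 0.60 in HaCaT (standard error 0.0738, adjusted p = 3.54e-06). The difference of these responses, TIGK minus HaCaT, was 0.10 with a 95% interval from -0.12 to 0.32 (adjusted p = 0.604). HaCaT held 2.43-fold the EGFR mRNA of TIGK before H2O2 (adjusted p = 1.42e-11) and 2.27-fold after it (adjusted p = 4.79e-11). An antisense gene, EGFR-AS1, overlaps EGFR with a mean of 48.7 counts against 41472 for EGFR, and whether reads were counted by strand is not given in the sources used here.

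Of the ligands, HBEGF encodes heparin-binding EGF-like growth factor, a ligand released in wounded epithelium. The gene lies on chromosome 5 from 140332843 to 140346631, minus strand (ENSG00000113070). Its counts were 610.1, 576 and 534 in untreated TIGK and 1503, 1866 and 1853 in treated TIGK. They were 1265, 1224 and 1501 in untreated HaCaT and 5425, 6087 and 6220 in treated HaCaT. Every treated library lay above every untreated library of its line, and the treated HaCaT libraries lay above all others. The log2 fold change was 1.60 in TIGK (standard error 0.096, adjusted p = 3.04e-10) and 2.15 in HaCaT (standard error 0.091, adjusted p = 1.94e-12), or 3.04-fold and 4.44-fold. Among all genes tested these rises ranked 92 in TIGK and 118 in HaCaT. HBEGF was also 2.32-fold higher in untreated HaCaT than in untreated TIGK (adjusted p = 1.42e-09), and 3.39-fold higher after H2O2 (adjusted p = 1.80e-12).

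AREG encodes amphiregulin, an autocrine growth factor of keratinocytes, and was the most abundant ligand mRNA by length in every library. It lies on chromosome 4 from 74445134 to 74455009, plus strand (ENSG00000109321). Untreated TIGK held 28243, 22872 and 21316 normalized counts, and treated TIGK 35934, 37466 and 34666. Untreated HaCaT held 20064, 19915 and 22165, and treated HaCaT 30014, 33869 and 38562. Treated and untreated libraries did not overlap in either line, whereas the lines overlapped both before and after H2O2. AREG rose 1.49-fold in TIGK (log2 0.58, standard error 0.0916, adjusted p = 7.98e-05) and 1.65-fold in HaCaT (log2 0.72, standard error 0.0919, adjusted p = 5.42e-06), a difference of -0.14 with a 95% interval from -0.42 to 0.13. HaCaT over TIGK in untreated cells had a log2 fold change of -0.22 that did not pass (adjusted p = 0.0391). It passed without untreated TIGK replicate 3 (adjusted p = 0.0065) and with all low counts retained (adjusted p = 0.00167). The fit with low counts retained gave far smaller p-values at similar fold changes elsewhere too, as for EGFR in TIGK (adjusted p = 1.52e-16 against 3.49e-05). After H2O2 the AREG value of HaCaT over TIGK was -0.08 with a 95% interval from -0.27 to 0.11 (adjusted p = 0.466).

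EREG, the gene of epiregulin, a ligand of EGFR and ERBB4, moved against its neighbour AREG. It lies 56 kb before AREG on chromosome 4, from 74365143 to 74388751, plus strand (ENSG00000124882). Its counts went from 11634, 10083 and 10587 to 7975, 8996 and 8174 in TIGK, and from 4185, 4721 and 5303 to 2813, 2599 and 2285 in HaCaT. The 4 groups did not overlap, with the highest level in untreated TIGK and the lowest in treated HaCaT. EREG fell by 0.88 on the log2 scale in HaCaT (standard error 0.0864, adjusted p = 2.39e-07) and by 0.36 in TIGK (standard error 0.0836, adjusted p = 0.00243). The fall in TIGK did not pass without untreated TIGK replicate 1 or without treated TIGK replicate 1 or 3 (adjusted p from 0.0157 to 0.0228 in these 3 fits). TIGK held 2.27-fold the EREG of HaCaT before H2O2 (adjusted p = 3.10e-10) and 3.27-fold after it (adjusted p = 1.99e-12).

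EPGN, the gene of epithelial mitogen, and BTC, the gene of betacellulin, complete the group of 4 ligand genes within 486 kb of chromosome 4. EPGN lies 50 kb before EREG, from 74308473 to 74315307 on the plus strand (ENSG00000182585), and BTC 290 kb after AREG, from 74744759 to 74794686 on the minus strand (ENSG00000174808). EPGN had 3079, 3067 and 3024 normalized counts in untreated TIGK and 2079, 2350 and 2191 in treated TIGK (log2 fold change -0.47, standard error 0.0823, adjusted p = 0.00021). In HaCaT its counts were 406, 431 and 534 before and 357, 395 and 420 after H2O2, and these groups overlapped (log2 fold change -0.22, standard error 0.0974, adjusted p = 0.0689). The difference of the responses did not pass (-0.25, 95% interval from -0.51 to 0.02, adjusted p = 0.232). The contrast between the lines was wide, as TIGK held 6.70-fold the EPGN of HaCaT before (adjusted p = 3.12e-15) and 5.65-fold after H2O2 (adjusted p = 1.85e-14).
BTC was near the limit of detection in HaCaT, with raw counts of 4, 4 and 2 before and 2, 2 and 4 after H2O2. TIGK held 47, 84 and 50 raw counts before and 34, 54 and 42 after. Summed over libraries and scaled, untreated TIGK had 20.1 times the BTC of untreated HaCaT (exact 95% interval of counting error 10.7 to 42.6, from 181 and 10 counts), and treated TIGK 13.8 times that of treated HaCaT (6.79 to 32.6, from 130 and 8 counts). A change with H2O2 was not detectable at this depth in TIGK (log2 fold change -0.59, adjusted p = 0.2) or in HaCaT, where the 95% interval ran from -1.51 to 1.38.

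TGFA, the gene of transforming growth factor alpha, the ligand whose protein was also in the medium, fell in both lines. It lies on chromosome 2 from 70447280 to 70554193, minus strand (ENSG00000163235). Untreated TIGK held 4312, 3664 and 3375 normalized counts and treated TIGK 2041, 2192 and 2040.3. Untreated HaCaT held 8548, 8631 and 8706, and treated HaCaT 4538, 4274 and 4174. Treated HaCaT thus overlapped untreated TIGK, and every other pair of neighbouring groups was separate. TGFA fell by 0.86 on the log2 scale in TIGK (standard error 0.072, adjusted p = 4.00e-08) and by 1.00 in HaCaT (standard error 0.0704, adjusted p = 3.66e-09), and the difference of the responses was 0.14 with a 95% interval from -0.07 to 0.35 (adjusted p = 0.412). HaCaT held 2.28-fold the TGFA of TIGK before H2O2 (adjusted p = 1.95e-11) and 2.07-fold after it (adjusted p = 1.68e-10).

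**Figure D2:**
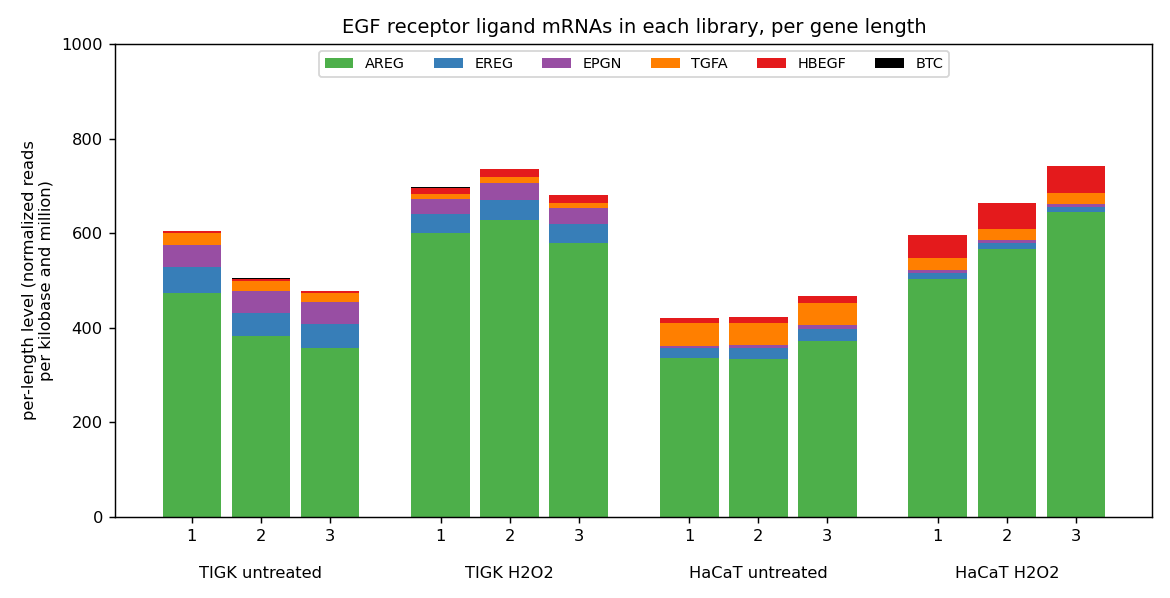
Per-length levels of the 6 ligand mRNAs, stacked for each of the 12 libraries (vertical axis: normalized reads per kilobase of gene length, scaled to library size as FPKM is, linear from 0; horizontal axis: replicate within each group). AREG forms the largest part of every bar, and the HBEGF part is widest in H2O2-treated HaCaT.

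Levels of different genes were compared per length, as normalized reads per kilobase of the table's gene length, scaled to library size as FPKM is. On this scale the 6 ligands summed to 529 ± 67.3 in untreated TIGK and 704 ± 28 in treated TIGK (SD, n = 3), and to 436 ± 26.1 in untreated HaCaT and 668 ± 73.4 in treated HaCaT. The sums of treated and untreated libraries did not overlap, from 478 to 605 against 681 to 736 in TIGK and from 421 to 467 against 596 to 742 in HaCaT. AREG made up 76.2% ± 1.73 of the sum in untreated TIGK and 85.5% ± 0.649 in treated TIGK, and 79.4% ± 0.357 and 85.5% ± 1.32 in HaCaT. The remaining ligands differed by line, with EREG and EPGN next in untreated TIGK (9.87% and 8.86%) and TGFA next in untreated HaCaT (11% ± 0.555). After H2O2 HBEGF was second in HaCaT, with 8.11% ± 0.399 of the sum against 2.78% ± 0.146 before, and its share in TIGK went from 0.995% ± 0.0657 to 2.26% ± 0.262. In TIGK EREG remained second after H2O2 at 5.73% ± 0.194. These shares were not tested, as a share of one ligand moves with those of the others. EGFR itself stood at 63.3 ± 7.92 per length in untreated TIGK and 154 ± 4.36 in untreated HaCaT, well under AREG at 404 ± 60.8 and 347 ± 21 in the same groups. This order rests on the deposited gene lengths, 12521 bases for EGFR and 1648 for AREG, and lengths of the expressed transcripts were not measured. In mean normalized counts EGFR was above AREG, at 28735 against 24144 in untreated TIGK and 69889 against 20715 in untreated HaCaT.

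The feedback inhibitor ERRFI1, also known as MIG6, binds the kinase domain of EGFR and blocks its activation. Of the 10 genes it had the largest difference of the responses between the lines. ERRFI1 lies on chromosome 1 from 8004404 to 8026308, minus strand (ENSG00000116285). Its counts went from 12467, 10867 and 10143 to 32366, 35048 and 31955 in TIGK, and from 3729, 3402 and 3398 to 4239, 4051 and 4214 in HaCaT. No groups overlapped, and the lowest untreated TIGK library was above every HaCaT library, treated or not. The log2 fold change was 1.57 in TIGK (standard error 0.0686, adjusted p = 2.96e-12), a 2.97-fold rise with rank 95 among all genes tested, and 0.25 in HaCaT (standard error 0.069, adjusted p = 0.00655). The small rise in HaCaT did not pass with median-of-ratios scaling (adjusted p = 0.0102), with HaCaT fitted alone (adjusted p = 0.0149) or without any of 8 libraries left out in turn, namely untreated TIGK replicate 2, treated TIGK replicates 2 and 3, untreated HaCaT replicates 2 and 3 and treated HaCaT replicates 1, 2 and 3 (adjusted p from 0.0107 to 0.0405). TIGK held 3.18-fold the ERRFI1 of HaCaT before H2O2 (adjusted p = 9.46e-14) and 7.95-fold after it (adjusted p = 3.90e-17). The antisense gene AL034417.4 overlaps it with a mean of 15 counts against 13347.

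SPRY2 and SPRY4 encode Sprouty proteins, inhibitors of signalling from receptor tyrosine kinases to ERK. SPRY2 (ENSG00000136158, chromosome 13 from 80335976 to 80340951, minus strand) had 973, 816 and 809 normalized counts in untreated and 1341, 1213 and 1199.5 in treated TIGK. In HaCaT it had 1168, 1163 and 1452 before and 1898, 1675 and 1657 after H2O2. It rose in both lines, by 0.53 on the log2 scale in TIGK (standard error 0.0973, adjusted p = 0.000337) and by 0.47 in HaCaT (standard error 0.095, adjusted p = 0.000577), and the difference was 0.06 with a 95% interval from -0.22 to 0.35. SPRY2 was 1.46-fold higher in HaCaT before H2O2 (adjusted p = 6.46e-05) and 1.39-fold after it (adjusted p = 0.000183), and treated TIGK overlapped untreated HaCaT.
SPRY4 (ENSG00000187678, chromosome 5 from 142310427 to 142326455, minus strand) had the opposite line preference. Its counts were 1976, 1724 and 1887 in untreated and 2155, 2592 and 2244 in treated TIGK, and 845, 837 and 903 in untreated and 792, 714 and 587 in treated HaCaT. No groups overlapped, but neither response passed the limit, with a log2 fold change of 0.32 in TIGK (standard error 0.092, adjusted p = 0.0103) and of -0.31 in HaCaT (standard error 0.0992, adjusted p = 0.0168). Both passed with DESeq2 (adjusted p = 0.00394 and 0.00695) and with low counts retained (adjusted p = 0.00011 and 0.000943), with the limit given for that fit under AREG. DESeq2 also gave far smaller p-values at similar fold changes, as for HBEGF in TIGK (DESeq2 adjusted p = 3.79e-54 against edgeR adjusted p = 3.04e-10). In TIGK it called 28% of all genes tested, against 23.2% with edgeR. The TIGK value passed with median-of-ratios scaling (adjusted p = 0.009) and with TIGK fitted alone (adjusted p = 0.00239). The TIGK value also passed without treated HaCaT replicate 1 or 3 (adjusted p = 0.00205 and 0.00169), and the HaCaT value without untreated TIGK replicate 2, treated TIGK replicate 2 or treated HaCaT replicate 1 (adjusted p from 0.0014 to 0.00883). TIGK held 2.16-fold the SPRY4 of HaCaT before H2O2 (adjusted p = 4.40e-09) and 3.34-fold after it (adjusted p = 8.26e-12).

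**Figure D3:**
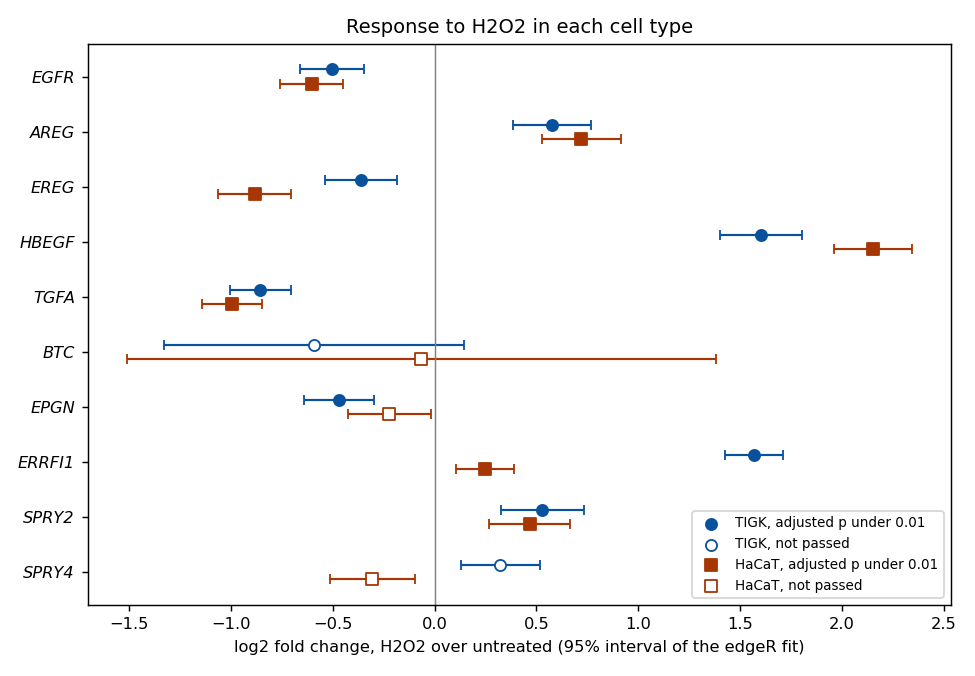
Log2 fold changes, H2O2 over untreated, of the 10 genes in TIGK (circles) and HaCaT (squares), with 95% intervals of the edgeR fit. Filled symbols have an adjusted p under 0.01. The intervals of ERRFI1, SPRY4, EREG and HBEGF are apart between the lines, while those of EGFR, AREG, TGFA and SPRY2 overlap.

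The study asked how the lines differ in their reaction to oxidative stress, which for these genes is the TIGK response less the HaCaT response. It passed for 4 of the 10 genes, positive for 3 and negative for 1. Of all genes tested, 5.3% passed in either direction (2.32% positive and 2.98% negative). A positive difference can be a smaller fall in TIGK, as for EREG, which fell in both lines. ERRFI1 had a difference of 1.32 on the log2 scale (standard error 0.0966, adjusted p = 4.91e-08), and it passed under every alternative run, with a highest adjusted p of 8.15e-07. SPRY4 had a difference of 0.63 (standard error 0.135, adjusted p = 0.00503), EREG of 0.52 (standard error 0.12, adjusted p = 0.00775) and HBEGF of -0.55 (standard error 0.13, adjusted p = 0.00956). These 3 lay close to the limit, and none of them passed with the replicate number fitted as a block. SPRY4 did not pass without untreated HaCaT replicate 1, 2 or 3 or treated HaCaT replicate 2 (adjusted p from 0.0107 to 0.0159). EREG did not pass without untreated TIGK replicate 2 or 3, treated TIGK replicate 1 or 2, untreated HaCaT replicate 2 or 3 or treated HaCaT replicate 2 or 3 (adjusted p from 0.0103 to 0.0258). HBEGF did not pass with median-of-ratios scaling (adjusted p = 0.0122), nor without untreated TIGK replicate 1 or 2, treated TIGK replicate 1, 2 or 3, untreated HaCaT replicate 1 or 2 or treated HaCaT replicate 2 or 3 (adjusted p from 0.0123 to 0.0446). For the other 6 genes the difference did not pass, with values from -0.53 for BTC to 0.14 for TGFA.

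Between the lines, 9 of the 10 genes differed in untreated cells and 9 after H2O2, and the gene that did not pass was AREG each time. Over all genes tested 59.9% differed before and 60% after H2O2, so line differences were common. EGFR, HBEGF, TGFA and SPRY2 were higher in HaCaT, and EREG, BTC, EPGN, ERRFI1 and SPRY4 were higher in TIGK, before and after H2O2 alike. In untreated cells these were 4 higher and 5 lower in HaCaT, against 29.1% and 30.8% of all genes tested, and after H2O2 again 4 and 5, against 30.2% and 29.8%.

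The rest of the pathway was read from lists written from general knowledge, with earlier results of these data already known. Receptors and ligands related to EGFR and its ligands came first. NRG1, the gene of neuregulin 1, a ligand of ERBB3 and ERBB4, fell like TGFA, from 5032 ± 317 to 3236 ± 198 normalized counts in TIGK (SD, n = 3, log2 fold change -0.64, adjusted p = 1.81e-07) and from 19238 ± 354 to 7801 ± 354 in HaCaT (log2 fold change -1.30, adjusted p = 6.39e-12). The fall was larger in HaCaT (difference of responses 0.66, standard error 0.0838, adjusted p = 3.89e-05). NRG4 fell in HaCaT from 35 ± 12.9 to 6.45 ± 4.82 normalized counts (log2 fold change -2.42, adjusted p = 0.000474). ERBB2, the shared partner of the family's receptors, fell in TIGK (log2 fold change -0.28, adjusted p = 0.000583) and was at -0.12 in HaCaT (adjusted p = 0.083). ERBB4 had 14.1 ± 4.07 normalized counts in untreated TIGK and 1.72 ± 1.54 in untreated HaCaT. Of the 8 genes listed 5 were tested, with 2 lower and 0 higher in each line, against 12.9% lower and 10.2% higher over all genes tested in TIGK and 15.2% and 18.9% in HaCaT, although the median log2 fold change in TIGK was 0.37, set by ERBB3, which did not pass (adjusted p = 0.0118).

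Of 10 tested genes of ligand release, 7 were lower and 0 higher in TIGK, against 12.9% and 10.2% of all genes tested, with a median log2 fold change of -0.26 beside 0.01. ADAM8, ADAM19 and RHBDF1 did not pass, and the 7 include TIMP3, an inhibitor of ADAM17. ADAM17, the main protease that sheds AREG, HBEGF and TGFA, had 1994 ± 52.7 normalized counts in untreated and 1671 ± 133 in treated TIGK (SD, n = 3, log2 fold change -0.26, adjusted p = 0.00709), and in HaCaT 1568 ± 34.3 and 1335 ± 85.1 (log2 fold change -0.23, adjusted p = 0.0108). FURIN, a convertase that activates ADAM proteases, and TIMP3 fell in both lines by 0.38 to 0.44 on the log2 scale. In HaCaT 3 of these 10 genes were lower and 0 higher, against 15.2% and 18.9% of all genes tested, with a median of -0.09 beside 0.04. There ADAM19 fell from 954 ± 94.8 to 261 ± 13.9 normalized counts (log2 fold change -1.87, adjusted p = 1.01e-06). In untreated cells ADAM8 was 3.35 log2 units higher in HaCaT, and TIMP3 was lower there (log2 fold change -2.39, adjusted p = 2.00e-16). The inhibitor was thus far more abundant in TIGK, at 20934 ± 981 against 4004 ± 244 normalized counts.

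Of the 17 genes of the core from adaptors to ERK 0 rose and 1 fell in TIGK, the exception being NRAS (log2 fold change -0.23, adjusted p = 0.00261), and 4 rose and 2 fell in HaCaT, with NRAS again lower (-0.39) and HRAS and MAP2K2 higher (0.38 and 0.37). In all, 1 of 17 is below the 23.2% called over all genes tested in TIGK, and 6 of 17 is near the 34.1% called in HaCaT. The median log2 fold change was -0.02 in each line. KSR1, a scaffold of the RAF, MEK and ERK kinases, stood at 517 ± 79.3 normalized counts in untreated TIGK and 51.6 ± 12.9 in untreated HaCaT (log2 fold change of HaCaT over TIGK -3.32, adjusted p = 4.01e-12). Among 14 genes of receptor ubiquitination and sorting, 1 rose and 3 fell in TIGK and 2 rose and 2 fell in HaCaT, so that the 4 of 14 called in each line were near the 23.2% and 34.1% called over all genes tested. CBL, the ubiquitin ligase that marks activated EGFR for degradation, fell in both lines, from 5527 ± 433 to 3248 ± 99.4 normalized counts in TIGK (log2 fold change -0.77, adjusted p = 5.69e-07) and from 6965 ± 325 to 3784 ± 511 in HaCaT (log2 fold change -0.88, adjusted p = 7.84e-08). Its relative CBLB fell in TIGK (log2 fold change -0.91) and was at 0.00 in HaCaT, and this difference of responses passed (-0.91, standard error 0.165, adjusted p = 0.00129). In untreated cells 11 of the 14 genes were higher in HaCaT and 1 was lower, against 29.1% and 30.8% of all genes tested.

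Of 13 other genes listed as feedback inhibitors, 2 rose and 4 fell in each line. Over all genes tested 10.2% rose and 12.9% fell in TIGK, and 18.9% and 15.2% in HaCaT. Whether each listed gene inhibits the receptor in these lines was not tested. SOCS3, an inhibitor of cytokine receptor signalling, rose by 1.28 on the log2 scale in TIGK (adjusted p = 1.00e-07) and 1.72 in HaCaT (adjusted p = 1.32e-09), and LRIG3 rose by 0.40 and 0.51. LRIG2 fell by 0.96 and 0.93, from 1149 ± 80.9 to 593 ± 80.8 normalized counts in TIGK and from 1002 ± 42.8 to 526 ± 24.3 in HaCaT (SD, n = 3). LRIG1 had values of -0.20 in TIGK and -0.48 in HaCaT that did not pass. SOCS3 had a difference of the responses of -0.44 that did not pass (standard error 0.16, adjusted p = 0.0835).

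**Figure D4:**
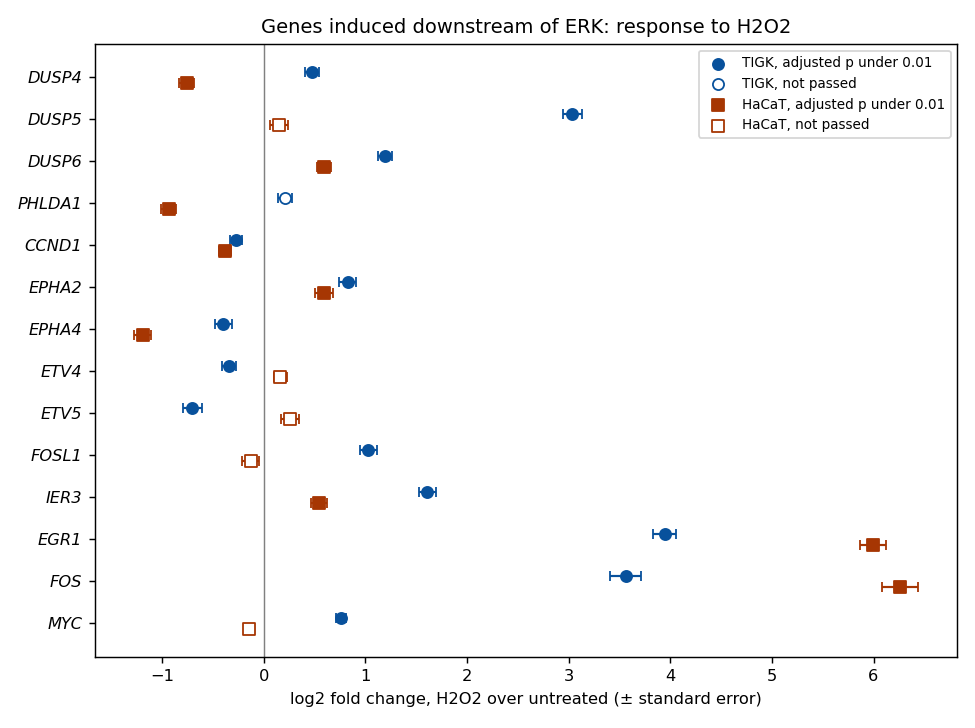
Log2 fold changes, H2O2 over untreated, in TIGK (circles) and HaCaT (squares) of 14 genes listed as transcribed downstream of ERK. Bars are standard errors of the edgeR fit, and filled symbols have an adjusted p under 0.01. EGR1 and FOS rose more in HaCaT, and DUSP5, FOSL1, IER3 and MYC more in TIGK.

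The genes listed as transcribed downstream of ERK separated the lines in their responses. Whether ERK drove each of them in these lines was not tested. Of 14 genes, 9 rose and 4 fell in TIGK and 5 rose and 4 fell in HaCaT. The difference of the responses, TIGK minus HaCaT, passed for 12, positive for 8 and negative for 4. One of the positive differences was a smaller fall in TIGK, that of EPHA4 (log2 fold change -0.40 against -1.19 in HaCaT). Over all genes tested 10.2% rose and 12.9% fell in TIGK, 18.9% rose and 15.2% fell in HaCaT, and 5.3% passed for the difference. The median difference was 0.69, beside -0.04 over all genes tested. In untreated cells 7 of the 14 were higher and 5 lower in HaCaT, against 29.1% and 30.8% of all genes tested (median 0.32 beside -0.01). After H2O2, 4 were higher and 6 lower in HaCaT, against 30.2% and 29.8% (median -0.05 beside 0.02). FOSL1 and DUSP6, both higher in untreated HaCaT, did not pass between the lines after H2O2 (edgeR adjusted p = 0.145 and 0.268). DUSP5, a phosphatase that inactivates ERK in the nucleus, went from 3700 ± 684 to 30356 ± 829.9 normalized counts in TIGK (log2 fold change 3.04, adjusted p = 1.28e-14) and from 3024 ± 79.2 to 3346 ± 190 in HaCaT (log2 fold change 0.15, adjusted p = 0.187), a difference of 2.89 (standard error 0.126, adjusted p = 4.52e-11). DUSP6, its cytoplasmic counterpart, rose in both lines, by 1.19 and 0.59 on the log2 scale. DUSP4 and PHLDA1 fell in HaCaT (-0.76 and -0.94), while DUSP4 rose in TIGK (0.47). The transcription factor genes EGR1 and FOS went the other way, with a rise of 3.94 and 3.56 in TIGK against 5.99 and 6.26 in HaCaT. Both began lower in HaCaT, EGR1 at 967 normalized counts against 3722 in TIGK and FOS at 270 against 804. After H2O2 EGR1 did not differ past the limit, at 61409 in HaCaT and 57281 in TIGK (edgeR adjusted p = 0.391). FOS was then higher in HaCaT, at 20643 against 9486 (edgeR adjusted p = 5.41e-07). ETV4 and ETV5, also transcription factor genes, make up the other negative differences (-0.50 and -0.96, adjusted p = 0.00133 and 6.60e-05), as they fell in TIGK (-0.34 and -0.70) and had values of 0.16 and 0.26 in HaCaT that did not pass. ERRFI1 and HBEGF, both also known as targets of ERK, thus stood on different sides, ERRFI1 with the genes that rose more in TIGK and HBEGF with those that rose more in HaCaT, with the limit given above for HBEGF.

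The genes whose profile over the 12 libraries was most like that of each member were sought among the other genes whose raw count averaged 100 or more, 11781 for most members and 11782 for BTC. Likeness was the root mean square difference of log2 CPM after centring each gene at its mean, a measure on which a small value means a close profile. Members differ in their own spread, such as 0.357 for AREG and 1.73 for BTC. The values therefore do not rank the members against each other. EGFR was closest to TNS4 (0.0711, against a spread of 0.682 of EGFR itself) and PTAR1, and TGFA to PTGS1 (0.142) and IRGQ. AREG was closest to DLGAP5 (0.095) and DYNLL1, EREG to RAPGEF3 (0.108) and ITGA5, and EPGN to SIPA1L2 (0.166) and TIMP3. HBEGF, with a spread of 1.21 of its own, was closest to NR4A2 at 0.443 and ID2 at 0.509, and ERRFI1 was closest to ADM (0.273) and RHOB. SPRY2 was closest to TNS3 (0.108) and LRRC45, SPRY4 to GRHL3 (0.11) and GPRASP2, and BTC to PABPC4L (0.276) and FSTL1.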

How the data were processed

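Total RNA of HaCaT and TIGK was sequenced as 12 polyadenylated libraries, grouped by the sample titles. The authors deposited raw read counts per gene for 58735 genes of GRCh38, without normalization, made per the paper and the labels with HISAT2, StringTie 1.3.3b and featureCounts 1.5.0-p3. The labels name HISAT2 both as 2.0.5 and as 2.0.0. The annotation release and the handling of strand and of multi-mapping reads are not given in the sources used here. The gene length, another deposited column, served for per-length levels. The treated samples' labels vary the last digit of the compound's formula, and their protocol names H2O2 for all. The authors' own DESeq2 fold changes and p-values were not used.

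Counts were analysed with edgeR 4.0.16 under R 4.3.3 (TMM, quasi-likelihood, 1 mean per group, mean raw count of at least 10, limit of 0.01), and DESeq2 1.42.0 as an alternative. On simulated counts of 16618 genes, edgeR recovered 85 of 100 genes changed 2-fold for the response of TIGK, with 0 false calls. It recovered 96 of 100 changed 4-fold, and 76 and 94 for the difference of the responses. The simulation gave every gene 1 common dispersion of 0.0073 and equal group means apart from 200 changed genes. The spread of single genes and the many changes in these data were not simulated, so its 0 false calls cannot be carried over to them. Replicates differed by 4.57 to 30.3 chi-square per degree of freedom, so no library repeated another, and each was kept. Intervals on counts cover counting error only. Members, lists and the rule for named genes were chosen with earlier results of these data known. Named were all members, up to 4 genes per list with the largest change in each response and in untreated cells, other list members chosen after their values were seen, and 2 genes of closest profile per member. Promoter windows came from RefSeq for 10 of 10 members. Proteins were not analysed here. Alternatives were DESeq2, median-of-ratios scaling, no filter, groups fitted alone, a replicate block, a limit of 0.05, and each library left out. Figures were drawn with matplotlib 3.10.9.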

Additional observations from a re-analysis of the deposited data

Results flagged for a closer look

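For 4 of the 10 genes the response to H2O2 differed between the lines by the test of the difference itself, TIGK minus HaCaT. The difference of log2 fold changes was 1.32 for ERRFI1, 0.63 for SPRY4, 0.52 for EREG and -0.55 for HBEGF (edgeR adjusted p = 4.91e-08, 0.00503, 0.00775 and 0.00956). ERRFI1 rose in TIGK in 3 of 3 treated libraries to 2.97-fold and in HaCaT to 1.19-fold. SPRY4 lay higher after H2O2 in all 3 treated TIGK libraries and lower in all 3 treated HaCaT libraries. Neither of these SPRY4 responses passed the limit alone (edgeR adjusted p = 0.0103 in TIGK and 0.0168 in HaCaT). The calls of SPRY4, EREG and HBEGF were each lost without any of 4, 8 and 9 of the 12 libraries left out in turn, and that of ERRFI1 was kept each time. With the replicate number fitted as a block, only ERRFI1 passed.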

How the results depend on the processing

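Of 890 values of single genes under alternatives, 832 kept their direction and their side of the limit, 38 lost a call, 16 gained one and 4 changed sign. The sign changes were those of BTC in HaCaT, at 0.20 without untreated HaCaT replicate 2, 0.07 without treated HaCaT replicate 1 and 0.07 without treated HaCaT replicate 2, and of SPRY2 in the difference of the responses, at -0.051 (a difference of log2 fold changes) without untreated HaCaT replicate 3. Over the libraries left out, BTC ran from -0.43 to 0.20 and SPRY2 from -0.051 to 0.19. These values did not pass in any fit, and the cause was not tested. After H2O2 all calls between the lines were kept.
The genes called for the difference of the responses went from 4 to 1 with the replicate block, leaving ERRFI1, and ran from 1 to 4 when libraries were left out. Over all genes tested the share called was 5.3%, then 3.65% with the block and 3.23% to 6.55% with libraries left out. No pairing of the replicate numbers was seen, as deviations of libraries with the same number correlated between -0.0319 and 0.0257. Otherwise, with libraries left out, 7 to 9 genes were called in TIGK, 6 to 7 in HaCaT, 9 to 10 between untreated lines and 9 between treated lines. The shares over all genes tested were, in the same order, 17.2% to 27.8%, 26.3% to 35.2%, 54.8% to 61.8% and 55% to 60.5%. No scaling moved the median of all genes by 0.1 or more on the log2 scale. Depth limits BTC in both lines, above all in HaCaT.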
